A study of Mus musculus with 4 samples.

Results

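The breakdown of the branched-chain amino acids leucine, isoleucine and valine was followed here through 10 genes in RNA from mouse brown adipose tissue, a fat depot that burns fuel to make heat. The genes were taken by symbol (Bcat2, Bckdha, Bckdhb, Dbt, Bckdk, Ivd, Mccc1, Mccc2, Pcca and Pccb), and each was found on 1 row of both deposited tables, 10 of 22481 symbols in all. The study recovered RNA with an antibody against FAM172A (IP) or with control immunoglobulin (IgG) and asked which mRNAs FAM172A binds in this tissue under cold exposure. There were 4 libraries, as 2 pairs of 1 IP and 1 IgG library. The WT4 pair is titled BAT-WT4-IP and BAT-WT4-IGG and carries no protocol label. The other, called the first pair here, is in a table whose columns carry no name but IP and IgG. By elimination it holds WT-cold-BAT-IP and WT-cold-BAT-IgG, the libraries with the protocol label cold. Both pairs are brown adipose tissue titled WT. Strain, age, and whether animals were pooled are not given in the sources used here, nor whether the pairs came from separate animals, so that p-values measure only the spread between these samples, which may be technical.

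Branched-chain amino acids are first stripped of their amino group by a transaminase, and the resulting keto acids are then committed to oxidation by the mitochondrial branched-chain keto acid dehydrogenase complex (BCKDH), which a dedicated kinase switches off. After that step the routes part. Leucine carbon passes through isovaleryl-CoA dehydrogenase and methylcrotonyl-CoA carboxylase towards acetoacetate and acetyl-CoA, and valine and isoleucine carbon through propionyl-CoA carboxylase towards succinyl-CoA. Brown fat is known to take up and oxidise these amino acids during thermogenesis.

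The RNAs at issue encode enzymes whose chemistry hangs on single residues, and 4 such codons are shown because they tie the members to each other. The stretches are from GENCODE vM21 transcripts on GRCm38 (the assembly that mm10 names), 45 bases each, 5′ to 3′ on the coding strand. In capitals stands the codon of the serine that the kinase encoded by Bckdk phosphorylates in the E1 alpha subunit (a role known from human and rat), of the lysine of Dbt that carries lipoate, and of the lysines of Mccc1 and Pcca that carry biotin. The Bckdha stretch (chr7:25631135-25631349, minus strand) spans exons 7 and 8, that of Dbt (chr3:116533295-116533339, plus strand) lies in exon 4, that of Mccc1 (chr3:35960115-35960962, minus strand) spans exons 18 and 19, and that of Pcca (chr14:122887065-122887109, plus strand) lies in exon 23.
Bckdha: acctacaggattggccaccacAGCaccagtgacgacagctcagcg
Dbt: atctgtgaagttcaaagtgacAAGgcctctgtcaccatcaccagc
Mccc1: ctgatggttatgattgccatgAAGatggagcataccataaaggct
Pcca: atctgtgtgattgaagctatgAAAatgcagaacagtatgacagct

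The libraries differed in depth. In the order first IP, first IgG, WT4 IP and WT4 IgG, which is kept throughout, they held 6633653, 5587294, 1631883 and 360369 fragments. The WT4 IgG library stood apart: 43.0% of the 16217 genes tested had 0 fragments in it, against 20.1% in the first pair's IgG library, and 12.7% and 1.61% among genes in the members' range of levels, while 0 of 10 members were at 0 in either. The brown adipocyte markers were abundant (Ucp1 had 38953, 32123, 3708 and 527 fragments, and Fabp4 23699, 18914, 3786 and 312), and 0 of the 10 markers were at 0 in a library. Skeletal muscle markers were also present, with summed levels of 6366, 4216, 1762 and 1907 scaled CPM against 14329, 13476, 9365 and 4429 for the brown adipocyte list. Scaled CPM sets the authors' scaled count against the average scaled total of its pair, times 1000000. The muscle sum includes Myh4, a fast myosin, at 20137, 9465, 1485 and 501 fragments, and Atp2a1 at 4882, 3715, 268 and 122. Muscle also breaks down branched-chain amino acids, and its part in the members' levels was not tested. The 7 endothelial markers, with Kdr and Cdh5 the most abundant, summed to 773, 1858, 2130 and 1437 scaled CPM, with IP below IgG in the first pair and above it in the WT4 pair. Among them Emcn was at 0 in the first IP and WT4 IgG libraries only. The 6 macrophage markers in the tables, led by Mrc1 and Lyz2, summed to between 27.5 and 74.7 scaled CPM, the 6 liver markers, led by Ttr and Alb, to between 8.76 and 57.5, and the 5 red blood cell markers, led by Hba-a2 and Hbb-bs, to between 12.5 and 295. Markers at 0 numbered 1, 1, 3 and 4 for liver, 2, 2, 0 and 5 for macrophage, and 0, 0, 0 and 3 for red blood cell. Within the WT4 pair the liver sum was nonetheless higher in IgG, at 57.5 against 8.76 in IP. Of the 57.5, Ttr alone made up 55.0, on 22 fragments. These sums are of RNA recovered with antibody or IgG. The amount of a cell type, its RNA per cell, recovery and depth cannot be told apart in them.

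All 10 members had fragments in all 4 libraries, which 43.0% of the genes tested had. In FPKM, a level per kilobase of transcript in the recovered RNA as the authors computed it, their median stood at 43.7, 35, 26.2 and 9.56, against 3.73, 4.83, 5.07 and 2.66 over all genes tested. All 10 lay above the median of all genes in both libraries of the first pair, 9 in the WT4 IP library and 8 in the WT4 IgG library. Their joint share of all fragments was 0.104%, 0.116%, 0.0990% and 0.0463%. The WT4 IgG library thus held the least of the pathway, on 167 fragments in all.

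**Figure D1:**
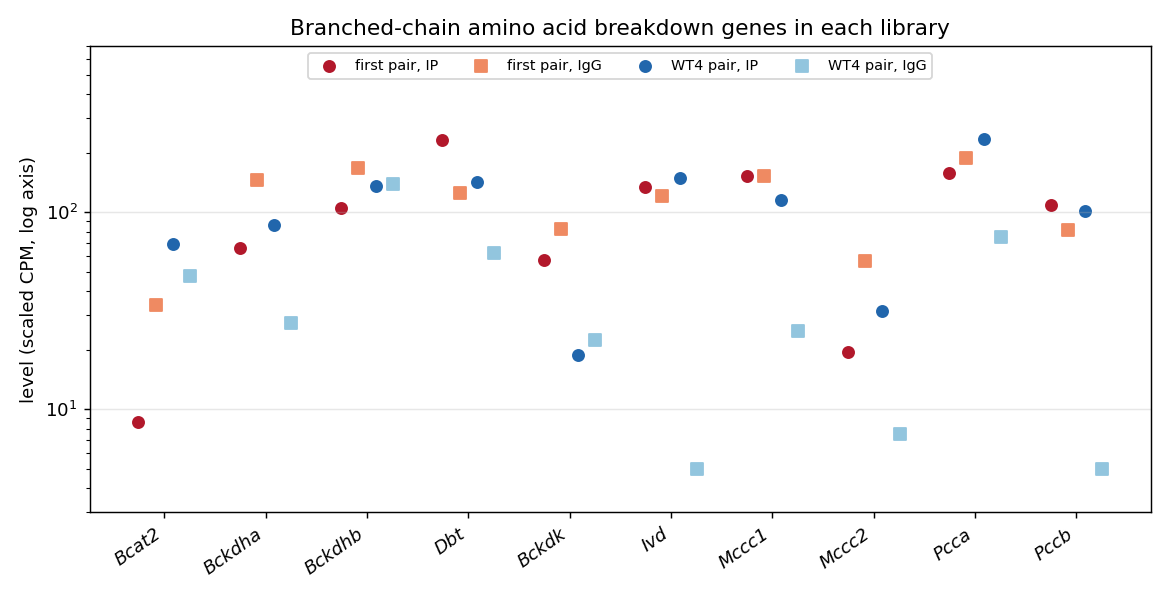
Level of each of the 10 genes in the 4 libraries, in scaled CPM on a log axis, with circles for IP and squares for IgG. Within the first pair Bcat2 is at 8.64 in IP and 33.8 in IgG, and within the WT4 pair Ivd and Pccb are at 5.0 each in IgG. Scaling was done within a pair, so levels are comparable within a pair only.

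The order of the members per length was set out from FPKM. In the first IP library Pcca was highest at 257 FPKM and Bcat2 lowest at 4.55. In the first IgG library the ends of the order were the same, at 101 and 15.3. In the WT4 IP library Pcca was highest at 58.4 and Bckdk lowest at 3.54, and in the WT4 IgG library Bckdhb was highest at 57.0 and Pccb lowest at 1.28. Pcca, Bckdhb and Mccc1 were among the 4 highest members in every library, and Mccc2 among the 2 lowest in every library. With 1 library of each kind per pair, neighbours in these orders have no replicate spread and were not tested. The order depended on the length used. When scaled CPM was divided by the merged exon length of GENCODE vM21, Mccc1, with 10952 merged exon bases against 1805 for Bckdhb, ranked 8th or 9th of 10, and Bckdhb or Dbt was highest.

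Whether FAM172A antibody recovered these RNAs beyond IgG was then asked within each pair, with the log2 ratio of IP over IgG taken on log2(scaled CPM + 1). In the first pair 0 of 10 members were at least 2-fold higher in IP, against 13.3% of all genes tested, and 3 were at least 2-fold lower (Bcat2, Mccc2 and Bckdha), against 26.9%. In the WT4 pair 7 were at least 2-fold higher (Bckdha, Dbt, Ivd, Mccc1, Mccc2, Pcca and Pccb), against 51.6%, and 0 were lower, against 19.3%. Among the 5103 genes whose mean level lay within that of the members (28.9 to 164 scaled CPM), 8.58% and 34.1% passed the 2-fold line upward in the first and the WT4 pair, and 19.0% and 19.9% downward. In the first pair the members had a median log2 ratio of -0.39, beside -0.03 over all genes and -0.16 over genes of their range of levels. In the WT4 pair it was 1.63, beside 1.17 and 0.23. These are descriptions of single pairs, and no test applies within a pair.

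**Figure D2:**
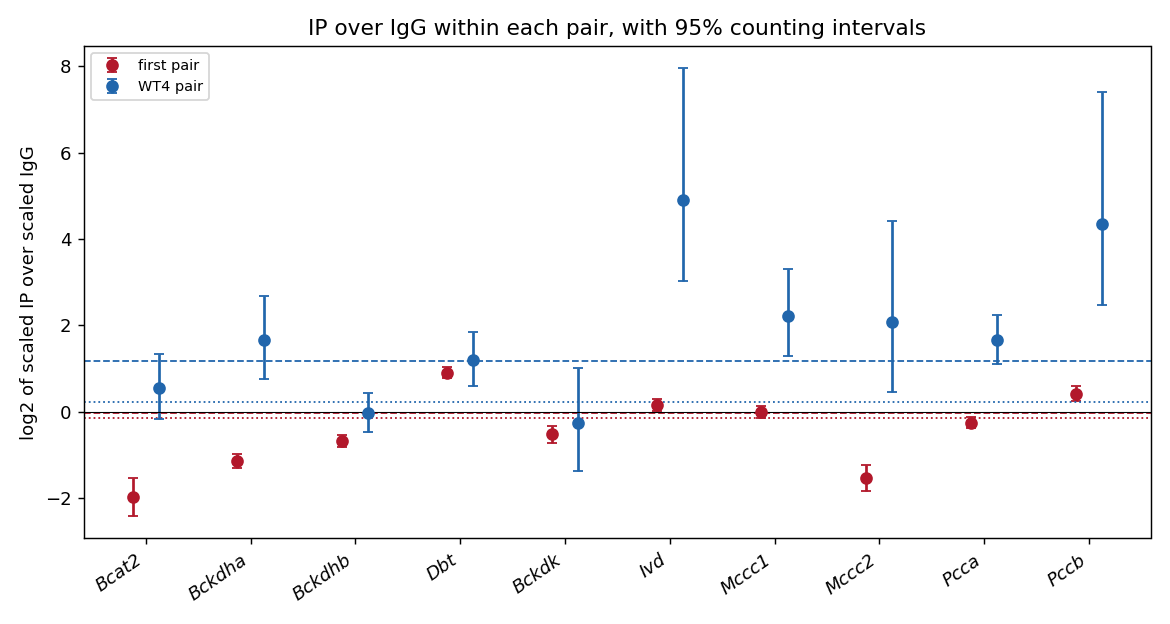
Log2 of scaled IP over scaled IgG without a pseudocount for each gene, first pair in red and WT4 pair in blue, with exact 95% binomial intervals that cover counting error only. Dashed lines are the medians of all genes tested and dotted lines the medians of genes in the members' range of levels, on log2(scaled CPM + 1). WT4 intervals are the wider ones, and the WT4 IgG library held between 2 and 56 fragments of each gene.

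On scaled CPM, 0 members passed the 2-fold line in the same direction in both pairs, which 7.19% of all genes were upward and 5.25% downward. On FPKM, Pcca (1.33 and 1.82) and Pccb (1.14 and 3.52) were 2-fold higher in both, 2 of 10 members against 6.37% of all genes, and 0 were lower, against 4.24%. On scaled CPM again, Dbt, Ivd and Pccb had ratios above 0 in both pairs (23.3% of all genes), Bckdhb and Bckdk below 0 in both (16.1%), and the other 5 had opposite signs (44.9%). The direction of Ivd in the first pair was close to none, at 0.15. Across both pairs, with the pair as a block, 0 of 10 members passed edgeR's quasi-likelihood test adjusted over all 16217 genes by Benjamini-Hochberg (adjusted p = 1.0 for each). That test called 1 gene in all, 0.00617%, which was the mitochondrial mt-Atp6, named here after its values were seen. Without adjustment, 235 genes (1.45%) had a p under 0.05, and Ivd was the member among them. DESeq2 and limma also called 0 members, with 0 members under that unadjusted p in DESeq2 and 2 in limma. The design is small: 4 libraries in 2 pairs leave 1 residual degree of freedom, and the smallest two-sided p that an exact permutation test within the pairs allows is 0.5 (0.333 with the pairing ignored).

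**Figure D3:**
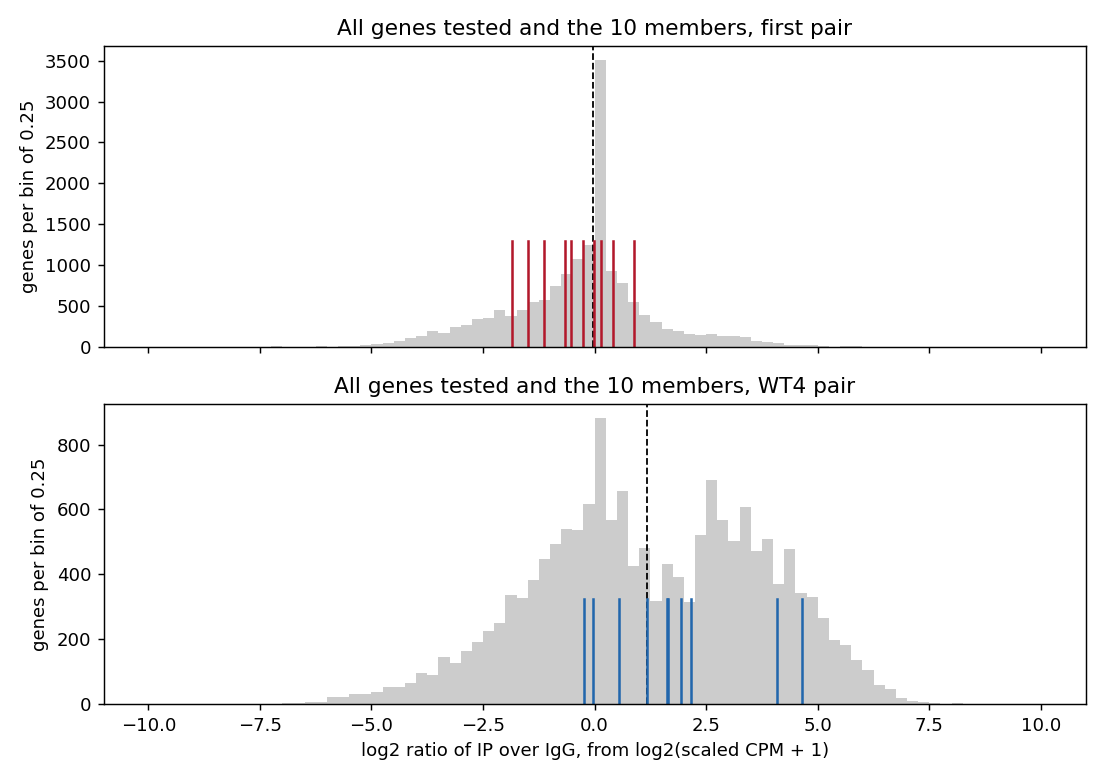
Distribution of the log2 ratio of IP over IgG over the 16217 genes tested in each pair, with the median as a dashed line and the 10 members as coloured ticks. In the first pair the members run from -1.85 to 0.89, and in the WT4 pair from -0.24 to 4.65.

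The transaminase step came first. Bcat2 (ENSMUSG00000030826, chromosome 7, 45570153 to 45589711, plus strand), the mitochondrial transaminase, yielded 57, 190, 103 and 19 fragments. IP was the lower library in the first pair, and the 2 WT4 libraries differed less once scaled. Its scaled level was 8.64 against 33.8 CPM in the first pair, a ratio of 0.255 with a counting interval of 0.186 to 0.345, the lowest of the 10. In the WT4 pair it was 69.4 against 47.5 CPM, a ratio of 1.46 (0.890 to 2.53), an interval that includes equal recovery. These are exact 95% binomial intervals, as are those that follow, and counting error is all they cover, because no molecular identifiers are named in the sources used here and fragments may be copies of 1 molecule. The edgeR log2 fold change over both pairs was -0.72 ± 1.69 (SE, n = 2 pairs), less than its error.

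The ratios of the dehydrogenase complex subunits differed in direction, and none passed the test. Bckdha (ENSMUSG00000060376, chromosome 7, 25629946 to 25658981, minus strand) encodes the E1 alpha subunit, which carries the phosphorylated serine shown above. It yielded 436, 822, 128 and 11 fragments. The ratio was 0.451 (0.401 to 0.508) and then 3.14 (1.70 to 6.44), so that IP was the lower library in the first pair and the higher in the WT4 pair. Bckdhb (ENSMUSG00000032263, chromosome 9, 83925145 to 84124240, plus strand), the E1 beta subunit that forms the decarboxylase with it, yielded 693, 942, 203 and 56 fragments. Its ratio was 0.626 (0.567 to 0.691) and 0.977 (0.724 to 1.34). Recovery of Bckdhb in the WT4 pair was close to equal, and the gene held the most WT4 IgG fragments of the 10. In FPKM the quotient of Bckdha over Bckdhb was 0.511, 0.709, 0.508 and 0.157, so the alpha subunit RNA was the lower of the pair in every library, and lowest against its partner in the WT4 IgG library.

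Dbt (ENSMUSG00000000340, chromosome 3, 116513070 to 116549981, plus strand) encodes the E2 core, whose lipoyl lysine hands the acyl group to coenzyme A. It yielded 1537, 702, 212 and 25 fragments. IP was the higher library in both pairs, by a ratio of 1.86 (1.70 to 2.04) and 2.29 (1.51 to 3.61). The log2 ratios were 0.89 and 1.18, averaging 1.04 ± 0.20 (SD, n = 2 pairs). On scaled CPM this was among the smallest spreads between pairs of the 10 members, together with that of Bckdk. The WT4 value was at that pair's median over all genes (1.17), and the first value was above its median (-0.03). Over genes in the members' range of levels the medians were -0.16 and 0.23, and Dbt was above both. It did not pass the test (edgeR log2 fold change 1.04 ± 0.72, SE, n = 2 pairs, adjusted p = 1.0, higher in 2 of 2 pairs).

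Bckdk (ENSMUSG00000030802, chromosome 7, 127904082 to 127910221, plus strand), the kinase that inactivates the complex, yielded 378, 465, 28 and 9 fragments. Its ratio was 0.692 (0.602 to 0.794) and then 0.839 (0.385 to 2.02), where the WT4 interval includes equal recovery. The log2 ratios of -0.52 and -0.24 averaged -0.38 ± 0.20 (SD, n = 2 pairs), and the edgeR log2 fold change of -0.40 ± 1.4 (SE) was smaller than its error. In FPKM the log2 ratios of Bckdk lay further apart, at -0.97 and -0.22. The level of Bckdk against Bckdha in FPKM was 0.691, 0.623, 0.129 and 0.478. With merged exon lengths the same quotient was 0.446, 0.291, 0.112 and 0.420, so it depends on the length used. The phosphatase that reverses the kinase, Ppm1k, is not a member and is named here after its values were seen. It yielded 724, 184, 77 and 15 fragments, for log2 ratios of 1.71 and 0.46, and its listed locus holds 4 genes, so that its count is uncertain.

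On the leucine route, Ivd (ENSMUSG00000027332, chromosome 2, 118861954 to 118882909, plus strand), isovaleryl-CoA dehydrogenase, yielded 885, 677, 222 and 2 fragments. The first pair's libraries were nearly level, with a ratio of 1.11 (1.01 to 1.23). In the WT4 pair the ratio was 29.9 (8.19 to 249), the highest of the 10 on scaled counts, while in FPKM that of Pccb was as high (3.52 against 3.50 on the log2 scale). Both rest on 2 IgG fragments, under the floor of 3. The log2 ratios of 0.15 and 4.65 gave an edgeR log2 fold change of 2.11 ± 1.0 (SE, n = 2 pairs, unadjusted p = 0.0353, adjusted p = 1.0). Without the WT4 IgG library, in a fit with no block, it was 0.23, and 0 members were called.

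Methylcrotonyl-CoA carboxylase is built from the biotin-carrying alpha subunit Mccc1 and the beta subunit Mccc2. Mccc1 (ENSMUSG00000027709, chromosome 3, 35959312 to 36000678, minus strand) yielded 1006, 861, 172 and 10 fragments. Its scaled ratio was 0.994 (0.907 to 1.09), the most even of the 10 in the first pair, and then 4.64 (2.46 to 9.84). Mccc2 (ENSMUSG00000021646, chromosome 13, 99948530 to 100015639, minus strand) yielded 129, 319, 47 and 3 fragments. Its ratio was 0.344 (0.278 to 0.424) in the first pair and 4.22 (1.36 to 21.2) in the WT4 pair, with only 3 IgG fragments there. Both subunit RNAs were higher in IP in the WT4 pair, and in the first pair the interval of Mccc2 lay below equal recovery while that of Mccc1 included it. In FPKM Mccc1 stood above Mccc2 by 8.66, 3.26, 6.30 and 12.5 times. With merged exon lengths the same quotient was 2.0, 0.691, 0.936 and 0.853, so which subunit is the more abundant depends on the length used.

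On the valine and isoleucine route, propionyl-CoA carboxylase is built from the biotin-carrying Pcca and from Pccb. Pcca (ENSMUSG00000041650, chromosome 14, 122534324 to 122891100, plus strand) yielded 1041, 1058, 349 and 30 fragments. The ratio was 0.837 (0.768 to 0.913) and 3.14 (2.16 to 4.72). Pccb (ENSMUSG00000032527, chromosome 9, 100982032 to 101034898, minus strand) yielded 716, 459, 151 and 2 fragments. Its ratio was 1.33 (1.18 to 1.5) in the first pair and 20.4 (5.54 to 170) in the WT4 pair, the latter on 2 IgG fragments. On scaled counts IP was thus the higher library in both pairs for Pccb and in the WT4 pair alone for Pcca, whose first-pair direction turns in FPKM (1.33 in place of -0.25). The log2 ratios of Pccb were 0.40 and 4.10, and its edgeR log2 fold change of 2.05 ± 1.14 (SE, n = 2 pairs) did not pass (unadjusted p = 0.0723, adjusted p = 1.0). Without the WT4 IgG library it was 0.36. The same statistic was 1.03 ± 0.83 for Mccc1, 0.67 ± 0.71 for Pcca, 0.18 ± 1.0 for Bckdha, 0.16 ± 2.36 for Mccc2 and -0.36 ± 0.72 for Bckdhb (SE, n = 2 pairs each), with an adjusted p of 1.0 for each in edgeR.

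Counting intervals in the first pair lay wholly above equal recovery for 3 members (Dbt, Ivd and Pccb), wholly below it for 6 (Bcat2, Bckdha, Bckdhb, Bckdk, Mccc2 and Pcca) and across it for Mccc1. In the WT4 pair they lay above it for 7 and across it for 3 (Bcat2, Bckdhb and Bckdk). The share of all genes tested with such intervals is not given here, so these counts cannot be read as particular to the members. Each pair has 1 library per fraction, so no interval includes the spread between immunoprecipitations. When each pair was centred on the median of all genes, 2 members (Ivd at 3.48 and Pccb at 2.92) stayed 2-fold higher in the WT4 pair and 2 became 2-fold lower (Bckdk at -1.42 and Bckdhb at -1.21). The WT4 median subtracted was 1.17, whereas genes in the members' range of levels had a WT4 median of 0.23. The share of all genes past the line after centring is not given here. The first pair's counts of 0 higher and 3 lower did not change with centring.

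The FPKM columns gave another picture of some members. FPKM is a count per length, and the scaled count per FPKM of a gene therefore follows the length that was used for it in a library, which need not be the same in IP and IgG. In the first pair this quotient was within 5% in IP and IgG for Bckdha, Bckdhb, Dbt and Mccc2, as for 48.1% of 9901 genes with at least 10 fragments in both libraries. For Pcca the IP quotient was 0.330 of the IgG quotient, for Pccb 0.590 and for Bckdk 1.38. A difference of over 2-fold, as for Pcca, was found in 13.5% of those genes. On log2(FPKM + 1) the first pair's ratio of Pcca was 1.33 in place of -0.25, and that of Pccb 1.14 in place of 0.40. Both then passed the 2-fold line upward, 2 of 10 members against 12.9% of all genes tested. The 3 members that were 2-fold lower in the first pair were also lower in FPKM (22.9% of all genes), with Bckdha at -1.12, Mccc2 at -1.42 and Bcat2 at -1.55.

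In the WT4 pair the FPKM ratio of Mccc1 was 1.03 in place of 2.17 and that of Ivd 3.50 in place of 4.65, with length quotients of 2.23 and 2.07 on 10 and 2 IgG fragments. A difference of over 2-fold was found in 15.9% of 6276 genes with at least 10 fragments in both WT4 libraries, a set that leaves out Ivd. In FPKM 7 members were 2-fold higher in the WT4 pair (46.4% of all genes) and 0 lower (19.6%). Pcca has 13 transcripts in GENCODE vM21, and its listed locus is shared with Tmtc4 and Ggact, that of Mccc1 with Ccdc144b, so that the counts of both are uncertain. The other 8 members have a listed locus of their own.

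**Figure D4:**
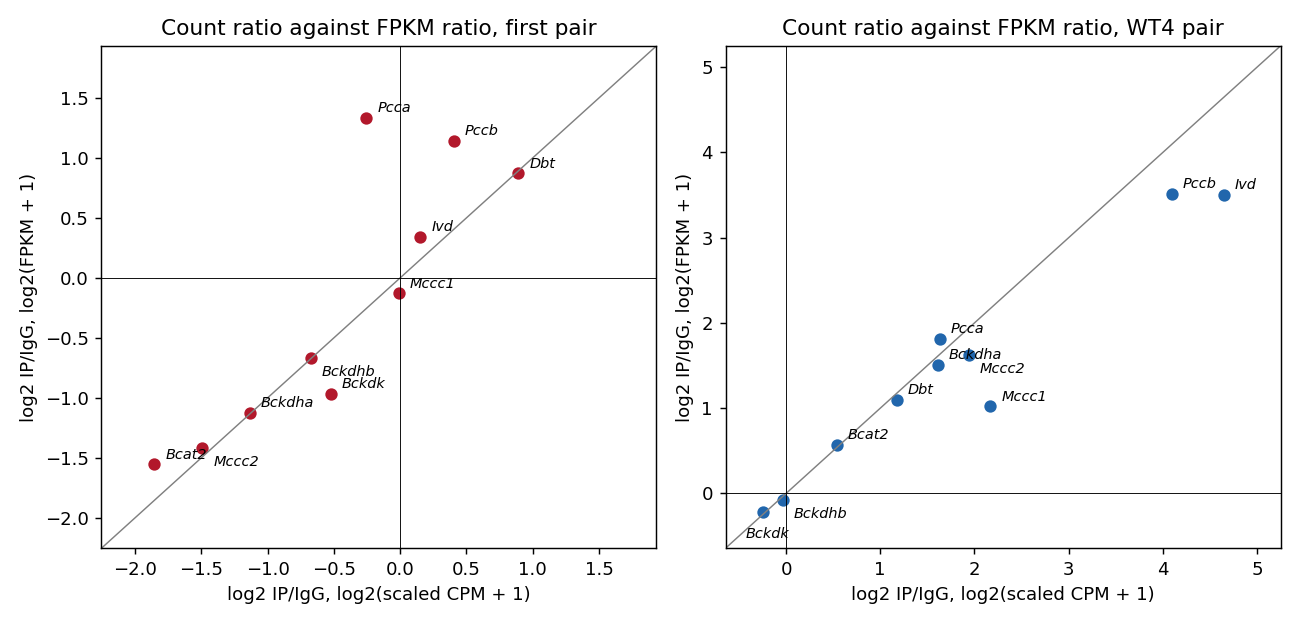
Log2 ratio of IP over IgG from scaled CPM (x axis) against that from FPKM (y axis) for the 10 genes, each with 1 added, first pair left and WT4 pair right, with the line of equality. In the first pair Pcca lies far above the line, at -0.25 and 1.33, and in the WT4 pair Mccc1 and Ivd lie below it.

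Other genes of the pathway were described from 3 lists. Of 19 further breakdown enzymes in the tables, all tested, Ppm1k alone was 2-fold higher in IP and Bcat1 alone lower in the first pair. The WT4 counts were 13 upward and 3 downward, with 6 at 0 in IgG, beside 51.6%, 19.3% and 43.0% of all genes tested. For these lists the first-pair shares of all genes are 13.3% upward and 26.9% downward. Their median log2 ratios were 0.14 and 2.18, beside the members' -0.39 and 1.63. None passed edgeR over all genes (smallest adjusted p = 1.0, 2 at an unadjusted p under 0.05, Hadhb and Mut, named after their values were seen and both at 0 in the WT4 IgG library). The 4 most abundant per length were Hadha, Acaa2, Hadh and Dld. Hadha, the alpha subunit of the trifunctional protein, yielded 13082, 10805, 1658 and 140 fragments, for log2 ratios of 0.04 and 1.67, and its listed locus holds 3 genes. Hadh, a hydroxyacyl-CoA dehydrogenase, had ratios of 0.23 and 2.18, Acaa2, a thiolase, of -0.59 and 0.62, and Dld, the E3 subunit that BCKDH shares with other keto acid dehydrogenases, of 0.29 and 1.44.

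Bcat1, the cytosolic transaminase, was the enzyme of that list that was 2-fold lower in both pairs, with 0, 42, 49 and 45 fragments. Its log2 ratio in the WT4 pair was -1.74. In the first pair its IP count of 0 gives only a bound, and IP was at least 16.4-fold lower against the floor of 3 fragments. Bcat2, its mitochondrial counterpart, had -1.85 and 0.54. The 7 genes that supply biotin and cobalamin to the carboxylases and to methylmalonyl-CoA mutase had medians of -0.11 and -0.52, with 1 higher in IP and 2 lower in each pair. The genes, named after their values were seen, were Slc5a6 upward and Hlcs and Btd downward in the first pair, and Btd upward and Hlcs and Mmab downward in the WT4 pair. Among them Hlcs, the ligase that attaches biotin to the lysines shown above, yielded 18, 226, 35 and 44 fragments and was at least 2-fold lower in IP each time (-3.47 and -2.17). Its listed locus holds 8 genes, so its count is uncertain. The loci of Btd and Slc5a6 hold 3 and 2 genes. Btd had 0 fragments in the WT4 IgG library, which gives only a bound: at least 1.62-fold higher in IP against the floor of 3 fragments. The first-pair log2 ratio of Slc5a6 was 1.98 on scaled CPM and 0.25 in FPKM. The 7 genes of transport and regulation had medians of -0.0041 and 0.68, with 0 higher and 1 lower, then 3 and 3. None of these 14 genes passed edgeR over all genes (smallest adjusted p = 1.0, 0 at an unadjusted p under 0.05). Per the tables' own pathway column, 55 genes carry the term for valine, leucine and isoleucine degradation, 9 of the 10 members among them and Bckdk not. Of the 51 tested, 0 were 2-fold higher and 1, again Bcat1, was 2-fold lower in both pairs, beside 7.19% and 5.25% of all genes tested.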

How the data were processed

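The labels' protocols describe rRNA-depleted, strand-specific libraries of immunoprecipitated RNA. The submitters' processing notes name mm10, cutadapt 1.9.3, HISAT2, Cufflinks and Cuffdiff without a role or order. The authors deposited estimated counts and FPKM, in 1 table per pair, and each table was normalized separately. In every library the deposited counts were multiples of a fixed step (0.926, 1.09, 0.731 and 2.71). Division by it gave fragments, with 94.6% to 97.8% of values within 0.05 of a whole number, and these were rounded for count tests. Genes with a mean of at least 1 scaled CPM were tested (16217). edgeR 4.0.16 took library sizes from the authors' scaling and the pair as a block, since title and table pair the libraries. Its prior degrees of freedom were infinite, so all genes of a level shared 1 spread. Its SE is the log2 fold change divided by the root of the F statistic. DESeq2 1.42.0, limma 3.58.1, other scalings, pseudocounts and filters, and leaving out each library were alternatives. The procedure was run on simulated data whose set spread was smaller than that fitted here (median dispersion 1.719). That run therefore cannot show how well changes are detected in these libraries. All 10 members were named, as were other pathway genes that moved 2-fold alike in the pairs, the 4 of highest mean FPKM, and 2 markers per list with any marker at 0 while the rest were not. Members and lists were chosen with earlier results of these data known.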

Additional observations from a re-analysis of the deposited data

Results flagged for a closer look

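On scaled CPM, for 5 members IP was the lower library in the first pair and the higher library in the WT4 pair, so that their effects had opposite signs. The log2 ratio of the WT4 pair exceeded that of the first pair by 3.43 for Mccc2, 2.75 for Bckdha, 2.39 for Bcat2, 2.18 for Mccc1 and 1.89 for Pcca. For Mccc1 the first ratio was -0.01, so its sign there carries little. For Pcca the sign in the first pair turns with the unit: in FPKM its log2 ratios were 1.33 and 1.82. With 1 pair of each kind the difference was not tested, and opposite signs, in either direction, were found in 44.9% of all genes tested. At least 2-fold lower in the first pair and 2-fold higher in the WT4 pair were 2 members (Bckdha and Mccc2), against 14.6% of all genes tested. The medians of all genes tested also differed between the pairs, at -0.03 and 1.17. Those of genes in the members' range of levels lay closer together, at -0.16 and 0.23. How much of the members' differences goes with such a shift was not tested.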

How the results depend on the processing

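The count of members called by edgeR was 0 under every alternative run. The count of all genes called was 1 and became 2 with total fragments or with the pairs centred on their median, 0 with no replicate block, 13 with limma on scaled CPM, 4 with limma on FPKM, and 0 to 7 when 1 library was left out. Members 2-fold higher in the first pair were 1 with TMM factors (Dbt) and 2 in FPKM (Pcca and Pccb, both then also higher in the WT4 pair). With centring, the WT4 counts became 2 higher and 2 lower and the WT4 median 0.45, as subtracting that pair's median of 1.17 shifts every ratio. Genes in the members' range of levels had a WT4 median of 0.23 before centring. No fold change passed, and 15 of 140 changed sign: Bckdha was -0.36 when centred and -0.21 with no replicate block, and Mccc2 -0.39 and -0.35. Without 1 library they ran from -2.23 to 0.78 for Bcat2, -0.94 to 1.47 for Bckdha, -1.49 to 0.76 for Bckdk, -0.19 to 2.42 for Mccc1 and -1.16 to 1.76 for Mccc2, and kept their sign for the other 5. These fits have no block, so the lone library is assumed to vary like the rest. Of 180 ratios within a pair, 13 left their counting interval. None called 2-fold on log2(scaled CPM + 1) changed sign under an alternative. The first-pair ratio of Pcca, not called there, turned from -0.25 to 1.33 in FPKM. Other causes of these shifts were not tested. The 360369 fragments of the WT4 IgG library left 2 to 56 per member.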
